A study of Mus musculus with 22 samples.

Results

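Levels of 10 genes of basophils, mast cells and eosinophils, out of 47311 annotated genes, were followed in blood precursors of ARID1A-deficient and control mice. The list held the basophil proteases Prss34 and Mcpt8, the granule, receptor and mediator genes Cpa3, Fcer1a, Ms4a2, Hdc and Il1rl1, and the eosinophil granule genes Prg2, Prg3 and Epx. The genes were chosen by name after the level of Prss34 in common myeloid precursors (CMP) had been seen among the largest falls in KO. The CMP comparison of KO and WT is therefore given below as a description without a test. Estimated counts and TPM (a level per transcript length, scaled to the same total in each library) of all transcripts of a gene were added up in each of 22 RNA-seq libraries.

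RNA was sequenced from mouse bone marrow cells that were sorted by flow cytometry. The floxed line had been backcrossed to C57BL/6 for 5 generations before it was crossed with Mx1-Cre mice. KO mice were Arid1a f/f;Mx1-Cre+. WT mice were littermates of the same sex that carried the floxed alleles but no recombinase (Arid1a f/f;Mx1-Cre-). All mice received 5 doses of 300 µg poly(I:C), were 8 to 14 weeks old, and were analyzed 4 weeks after the poly(I:C). Mx1-Cre is switched on by interferon, which poly(I:C) induces, and it is not confined to blood cells, so cells of the marrow surroundings can also lose Arid1a. CMP, granulocyte-monocyte precursors (GMP) and megakaryocyte-erythroid precursors (MEP) came from 3 WT mice (300, 305 and 309) and 3 KO mice (301, 304 and 308), each of which gave all 3 populations. These are Lin- Kit+ Sca1- cells split by CD34 and the Fcγ receptors II and III, and their libraries were made with the TruSeq RNA kit. The paper reports less CD34 on the surface of KO CMP and GMP than in controls. Whether the gates held the same cells in KO and WT was not tested here. Long-term hematopoietic stem cells (LT-HSC) came from WT mice S245 and S269 and KO mice S244 and S270. Their libraries were made with the SMART-Seq v4 low-input kit, so that their levels are not on the same footing as those of the precursors.

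Basophils, mast cells and eosinophils are granule-bearing cells of type 2 immunity and of allergy. The bone marrow holds precursors of each of them that overlap with CMP and GMP. Basophils and mast cells carry the high-affinity IgE receptor, whose crosslinking releases histamine, proteases and lipid mediators from granules. Eosinophils store cationic proteins that damage parasites, and GATA2, together with C/EBPα, is known to direct the choice between these lineages and the neutrophil and monocyte lineages.

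Total estimated counts on genes lay between 40804031 and 65930737 per library. Arid1a in GMP stood at 57.7 to 78.3 TPM in WT and 42.9 to 46.5 TPM in KO libraries, and in LT-HSC at 23.7 to 29.9 and 10.7 to 10.9 TPM. The ranges overlapped in CMP (77.5 to 84.1 and 70.8 to 80.4 TPM) and in MEP (51.5 to 53.4 and 45.7 to 52.0 TPM). Because exon 9 alone is removed, transcripts without it still add to these values, which therefore check the labels only in part. The defining genes of the sorted populations went with their labels, since Cebpa had 166 ± 6.93 TPM in WT GMP and 1.44 ± 0.276 TPM in WT MEP (SD, n = 3 each), and Gata1 had 14.05 ± 0.270 and 224 ± 5.80 TPM in the same libraries. The LT-HSC library of KO mouse S270 stood apart from the other LT-HSC libraries in eosinophil granule genes, as described below, and LT-HSC results are given with and without it. Of the whole marker list of mast cell granule genes, the proteases Mcpt1, Mcpt2, Mcpt4, Mcpt9, Tpsab1, Tpsb2 and Tpsg1 averaged under 0.13 TPM in both GMP groups, so that defining proteases of mature mast cells were at or near 0. Cma1, a mast cell chymase, averaged 0.809 ± 0.527 TPM in WT and 0.0908 ± 0.0301 TPM in KO GMP (SD, n = 3 each).

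The 10 genes lie on 7 chromosomes of the mouse genome (GRCm38). Prg2 (chr2:84980461-84983632) and Prg3 (chr2:84988215-84993886), which encode the major basic protein of the eosinophil granule and its homolog, are neighbors on the plus strand. Epx lies at chr11:87864000-87875536, Hdc at chr2:126593667-126619299 and Fcer1a at chr1:173221284-173227214, all on the minus strand, and Il1rl1 at chr1:40429570-40465415 on the plus strand. Prss34 (ENSMUSG00000056399, chr17:25298394-25300165, plus strand) encodes mast cell protease 11, a tryptase of basophils, and Mcpt8 (ENSMUSG00000022157, chr14:56082166-56085273, minus strand) encodes the basophil serine protease whose presence marks mature basophils. Cpa3 (ENSMUSG00000001865, chr3:20215620-20242181, minus strand) encodes carboxypeptidase A of mast cell and basophil granules. Ms4a2 (ENSMUSG00000024680, chr19:11615523-11623719, minus strand) encodes the β chain of the high-affinity IgE receptor. The 250 bases before the RefSeq transcription start of these 4 genes are printed here. The 4 genes and the motif were picked after the levels of the genes and of Gata2 in GMP had been seen. Capitals mark AGATAA or TGATAA, the letters of a GATA motif searched on both strands (TTATCT and TTATCA are their reverse complements, and the motifs share the letters GATAA). All sequences are RefSeq's on GRCm38.p6, written along the strand of the gene, from chr17:25298144-25298393 for Prss34, chr14:56085198-56085447 for Mcpt8, chr3:20242182-20242431 for Cpa3 and chr19:11623720-11623969 for Ms4a2.
Prss34: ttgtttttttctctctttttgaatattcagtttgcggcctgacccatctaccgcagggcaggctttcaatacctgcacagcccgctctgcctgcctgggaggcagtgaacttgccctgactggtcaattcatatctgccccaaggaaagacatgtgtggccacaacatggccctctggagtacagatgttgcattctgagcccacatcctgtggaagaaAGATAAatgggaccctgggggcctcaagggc
Mcpt8: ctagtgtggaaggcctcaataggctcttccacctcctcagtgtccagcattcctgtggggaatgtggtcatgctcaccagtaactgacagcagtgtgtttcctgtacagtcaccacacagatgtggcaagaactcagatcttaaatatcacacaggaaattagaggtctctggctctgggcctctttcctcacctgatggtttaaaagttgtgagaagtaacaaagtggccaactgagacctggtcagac
Cpa3: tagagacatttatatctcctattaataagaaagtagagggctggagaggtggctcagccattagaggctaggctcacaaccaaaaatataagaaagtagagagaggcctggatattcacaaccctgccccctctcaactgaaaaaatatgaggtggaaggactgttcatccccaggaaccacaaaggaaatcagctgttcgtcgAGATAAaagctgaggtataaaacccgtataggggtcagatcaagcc
Ms4a2: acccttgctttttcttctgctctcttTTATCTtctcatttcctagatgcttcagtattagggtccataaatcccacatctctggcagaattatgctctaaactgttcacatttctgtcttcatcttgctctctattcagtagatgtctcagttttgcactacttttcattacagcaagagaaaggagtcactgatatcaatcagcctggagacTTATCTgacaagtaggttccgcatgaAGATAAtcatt
In Prss34 the letters stood 31 to 26 bases before the start and in Cpa3 46 to 41 bases before it, and in Ms4a2 they occurred at 3 places. The Mcpt8 window, whose start lies 76 bases from that of GENCODE, had none. Windows of 9 genes were in the RefSeq table (Prg2 had no entry). At least 1 window of 6 of them held a match, namely Prss34, Cpa3, Fcer1a, Ms4a2, Il1rl1 (in both of its windows) and Prg3, whereas Mcpt8, Hdc and Epx had none. Counted by window, 7 of the 10 windows of members held a match, as did 16.6% of all 32851 promoter windows of the same length. These are letter matches in the DNA. Binding was not measured in the data used here, and a link of the letters to the KO values was not tested.

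Among the WT precursor populations, 9 of the 10 genes were highest in GMP, and Il1rl1 was highest in MEP. Prg2 was the most abundant, with 5866 ± 2230 TPM in WT GMP, 73.4 ± 31.2 TPM in CMP and 22.7 ± 8.68 TPM in MEP (SD, n = 3 each). Epx, the eosinophil peroxidase gene, followed with 667 ± 305, 5.18 ± 0.786 and 2.01 ± 1.11 TPM. Cpa3 had 112 ± 59.2 TPM in CMP and 230 ± 88.1 TPM in GMP, groups that overlapped. Il1rl1, which encodes ST2, the receptor of interleukin 33, had 21.2 ± 2.16 TPM in CMP, 9.24 ± 1.27 TPM in GMP and 38.0 ± 1.44 TPM in MEP, and no 2 of these groups overlapped.

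All 10 genes differed between WT GMP and WT CMP, where 40.9% of the 17476 genes tested were called at a false discovery rate (FDR) of 0.1. The log2 difference of GMP less CMP was 7.12 (SE 0.47) for Epx, 6.55 (SE 0.38) for Prg3, 6.49 (SE 0.47) for Prss34 and 3.70 (SE 0.21) for Mcpt8, with adjusted p between 5.82e-07 and 3.03e-06 by the quasi-likelihood test of edgeR, adjusted over all genes after Benjamini and Hochberg. At the other end were Cpa3, with 1.21 (SE 0.43, adjusted p = 0.0536), and Il1rl1, with -1.03 (SE 0.11, adjusted p = 3.60e-05). MEP also differed from GMP in all 10 genes, where 70.4% of all genes were called. The log2 difference of MEP less GMP was below 0 in 9 of them, down to -9.20 (SE 0.29) for Hdc, the gene of the enzyme that makes histamine, and was 2.13 (SE 0.11) for Il1rl1. From CMP, MEP likewise differed in all 10 genes, with 70.4% of all genes called, upward in Il1rl1 (1.11, SE 0.10) and downward in the others. Fcer1a had 1 to 10 counts per library in WT MEP and passed the filter of this fit through GMP and CMP. No difference of MEP from GMP or CMP is therefore read from its calls. These comparisons share their WT libraries. Cpa3 between GMP and CMP fell short of the threshold when one of 4 libraries was left out (adjusted p = 0.104 to 0.172), as did Prss34 between MEP and CMP (0.106 to 0.382).

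**Figure D1:**
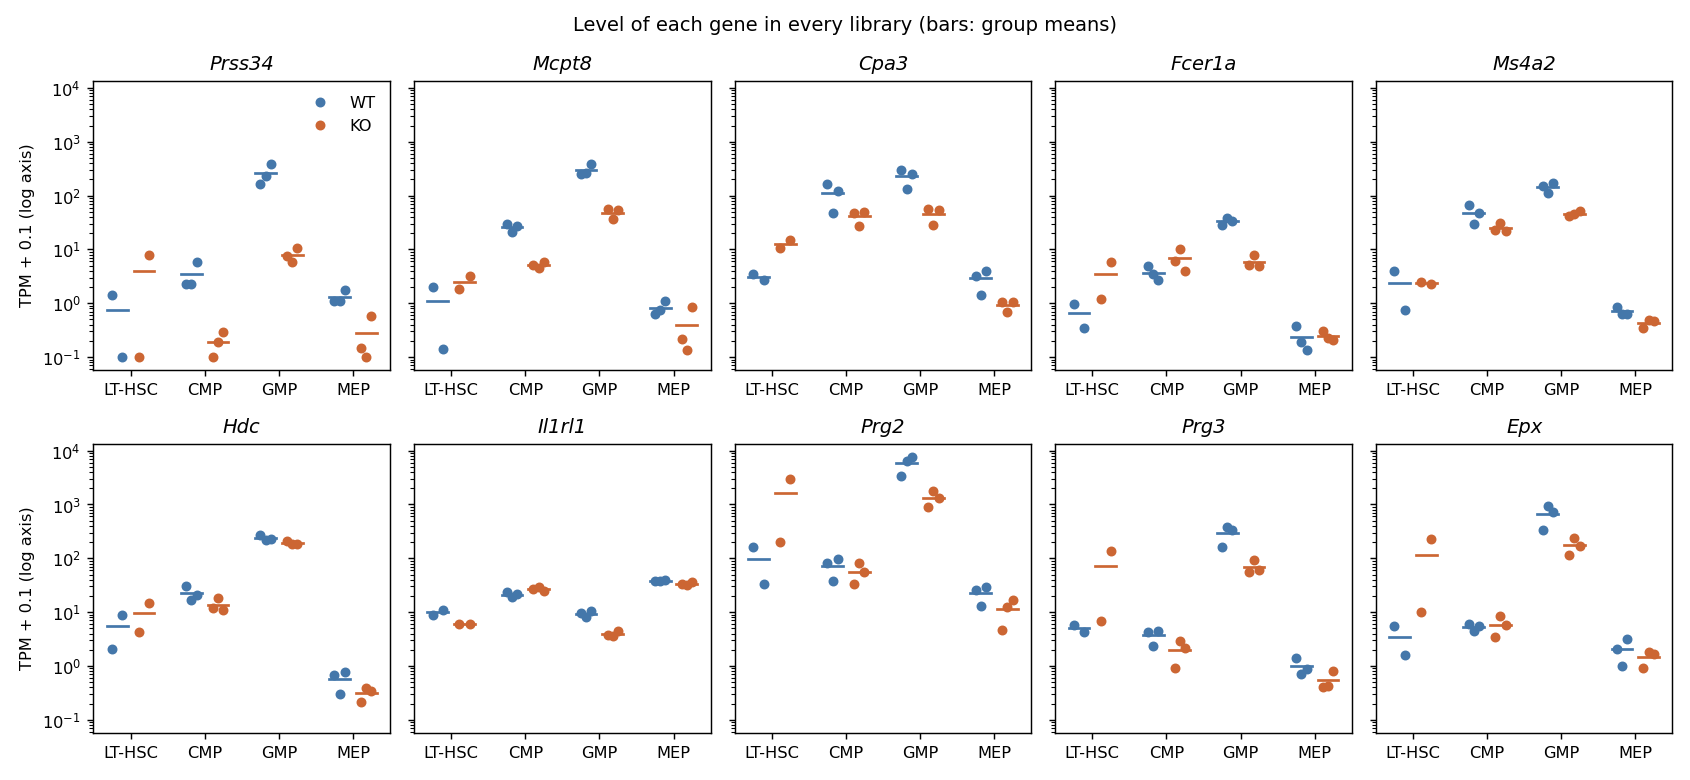
Level of each gene in every library, as TPM + 0.1 on a log axis, by population, with WT in blue and KO in orange and bars at the group means (3 libraries a group, 2 in LT-HSC). In GMP the KO points lie below the WT points in each of the 10 panels, by the least in Hdc, and in LT-HSC 1 KO point lies far above the others in Prg2, Prg3 and Epx.

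In GMP, where all these genes but Il1rl1 were highest among WT precursors, 9 of the 10 were lower in KO and none was higher. Of the 16383 genes tested there, 16.3% were called lower and 17.5% higher. Every KO library lay below every WT library in 9 genes (by CPM, counts scaled to library size after TMM normalization) and above in none, where 20.8% and 21.5% of the genes tested did. The fall was deepest in the basophil protease Prss34, 3.40- to 3.94-fold in the eosinophil granule genes, and Hdc was the gene that was not called. RNA of bulk cells cannot tell a loss of cells that express a gene from less of its RNA in each cell.

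Prss34 stood at 162, 228 and 389 TPM in the WT GMP libraries of mice 300, 305 and 309, and at 7.502, 5.71 and 10.53 TPM in the KO libraries of mice 301, 304 and 308. The order of the mice is kept in the sentences that follow. The log2 fold change was -4.89 (SE 0.36, adjusted p = 2.72e-05 by edgeR's quasi-likelihood test), which is 29.7-fold. All KO libraries lay far below the lowest WT library. For Mcpt8, the levels were 255, 258 and 392 TPM in WT and 55.7, 36.6 and 52.8 TPM in KO. Its log2 fold change was -2.49 (SE 0.20, adjusted p = 4.02e-05). The 2 proteases thus parted in size, since Prss34 had 0.637 to 0.995 times the TPM of Mcpt8 within a WT library and 0.135 to 0.199 times within a KO library, a comparison for which no test was run.

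Among the granule, receptor and mediator genes, Fcer1a, which encodes the IgE-binding α chain, had 28.0, 38.3 and 33.7 TPM in WT and 5.02, 7.72 and 4.82 TPM in KO GMP (log2 fold change -2.34, SE 0.21, adjusted p = 6.38e-05). Ms4a2 had 152, 114 and 172 TPM in WT and 41.7, 45.3 and 52.0 TPM in KO (-1.48, SE 0.16, adjusted p = 1.65e-04). Neither receptor gene overlapped between the groups. Cpa3 had 305, 133 and 253 TPM in WT and 56.2, 28.8 and 53.0 TPM in KO (-2.18, SE 0.32, adjusted p = 9.36e-04). Il1rl1 had 9.41, 7.89 and 10.4 TPM in WT and 3.70, 3.44 and 4.37 TPM in KO (-1.12, SE 0.14, adjusted p = 3.71e-04). The spread between replicates was small in Il1rl1, and its groups stood apart despite the smallest fall among the called genes. Hdc had 271, 219 and 230 TPM in WT and 212, 188 and 187 TPM in KO. Its TPM values did not overlap, but its CPM values did. Its log2 fold change of -0.13 (SE 0.08, adjusted p = 0.292) was not called, except when the library of WT mouse 305 was left out (-0.22, adjusted p = 0.0625). Within a library, Cpa3 had 0.608 to 1.13 times the TPM of Hdc in WT GMP and 0.153 to 0.284 times in KO GMP.

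The 3 eosinophil granule genes fell by about the same size. Prg2 had 3372, 6557 and 7668 TPM in WT and 905, 1768 and 1307 TPM in KO GMP (log2 fold change -1.98, SE 0.33, adjusted p = 0.00208). Prg3 had 164, 376 and 342 TPM in WT and 54.8, 93.8 and 60.5 TPM in KO (-1.96, SE 0.32, adjusted p = 0.00180). Epx had 335, 936 and 730 TPM in WT and 113, 243 and 169 TPM in KO (-1.76, SE 0.38, adjusted p = 0.00769). WT mouse 300 was the lowest WT library in each of the 3 genes, yet it stood above every KO library. In contrast to the basophil proteases, the ratio of these genes to each other hardly moved, as Prg3 had 0.0446 to 0.0574 times the TPM of Prg2 in WT and 0.0463 to 0.0606 times in KO. The 10 genes together held 5054, 8868 and 10220 TPM in WT and 1454, 2420 and 1901 TPM in KO GMP (exact permutation test over libraries, two-sided p = 0.1, the smallest that 3 against 3 allows). The KO mean was 23.9% of the WT mean, and 24.04% without Cpa3.

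**Figure D2:**
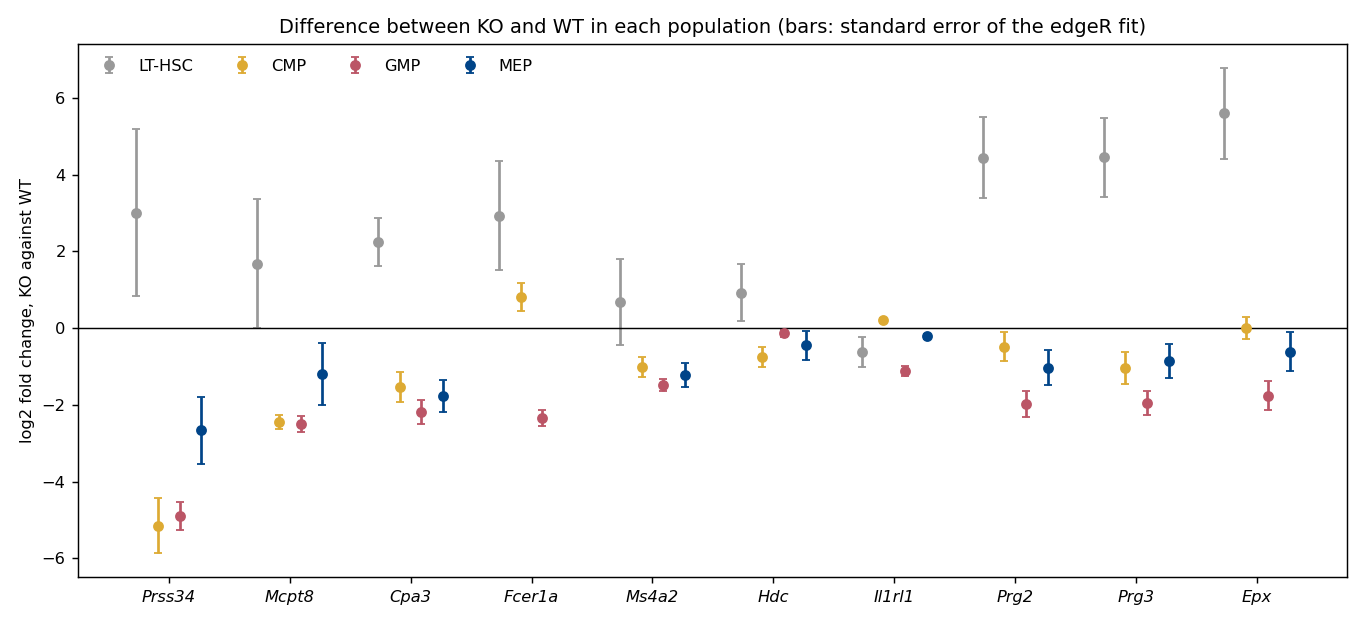
Log2 fold change of KO against WT for each of the 10 genes, by population (grey LT-HSC, yellow CMP, red GMP, blue MEP), with bars of 1 standard error from the edgeR fit. All GMP values lie below 0, from -4.89 in Prss34 to -0.13 in Hdc, and Fcer1a has no MEP point because it did not pass the filter on low counts there.

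In CMP, the contrast that led to the choice of the genes, Prss34 stood at 2.16, 2.14 and 5.71 TPM in WT and at 0, 0.0931 and 0.190 TPM in KO. The count of 0 in KO mouse 301 allows up to 0.0665 CPM (3 counts of its total, counting error only). Mcpt8 had 30.0, 21.0 and 27.4 TPM in WT and 5.03, 4.51 and 5.85 TPM in KO. The log2 fold changes were -5.14 (SE 0.71) for Prss34 and -2.45 (SE 0.17) for Mcpt8, and both genes were separated between the groups. Cpa3 had 165, 47.8 and 123 TPM in WT and 46.8, 27.1 and 48.9 TPM in KO, so that the lowest WT library lay within the KO range in TPM, though just above it in CPM. The other values were -1.54 (SE 0.39) for Cpa3, -1.01 (SE 0.26) for Ms4a2 and -0.75 (SE 0.25) for Hdc. Fcer1a had 4.77, 3.37 and 2.61 TPM in WT and 6.00, 10.3 and 3.85 TPM in KO (0.81, SE 0.36), and Il1rl1 had 23.1, 18.8 and 21.6 TPM in WT and 26.6, 28.6 and 24.1 TPM in KO (0.20, SE 0.07). The α and β chain genes of the IgE receptor thus lay on opposite sides of 0 in CMP, with overlapping groups in both, whereas the KO libraries of Il1rl1 all lay above WT. Prg2 (-0.48, SE 0.38), Prg3 (-1.04, SE 0.42) and Epx (0.00, SE 0.29) overlapped between the groups. At the threshold used elsewhere 5 genes would be called lower, where 12.8% of all genes were, and 1 higher, where 10.6% were. In 3 genes every KO library lay below every WT library by CPM (18.3% of all genes), and in 1 every KO library lay above (15.7%). These counts rest on the contrast that chose the genes, and nothing is read from them. The 5 became 3 without KO mouse 301, and the 1 became 0 when any one of WT mice 300, 305 and 309 or KO mice 301 and 304 was left out.

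MEP expressed little of these genes except Il1rl1 and Prg2. Of the 9 genes tested, 4 were lower in KO and none was higher, where 15.4% of the 15777 genes tested were called lower and 14% higher. Cpa3 had 3.17, 1.32 and 3.87 TPM in WT and 0.957, 0.595 and 0.937 TPM in KO (log2 fold change -1.77, SE 0.41, adjusted p = 0.0168 by edgeR). Ms4a2 had 0.759, 0.524 and 0.537 TPM in WT and 0.253, 0.382 and 0.373 TPM in KO (-1.22, SE 0.32, adjusted p = 0.0281). Prss34 rested on 46, 34 and 56 counts in WT and 2, 0 and 23 counts in KO (-2.66, SE 0.87, adjusted p = 0.0640). In CPM, every KO library lay below every WT library in 4 genes, these and Il1rl1, and above in none, where 20% and 18.7% of all genes did. Even so, KO mouse 308 was far nearer to WT than the other KO mice in Prss34, and within the WT range in Mcpt8. Mcpt8 had 0.536, 0.665 and 0.983 TPM in WT and 0.114, 0.0373 and 0.750 TPM in KO (-1.20, SE 0.80, adjusted p = 0.347). Il1rl1 had 37.2, 37.1 and 39.7 TPM in WT and 33.5, 31.7 and 35.6 TPM in KO (-0.22, SE 0.06, adjusted p = 0.0414), the smallest of the called differences.

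Hdc (-0.44, adjusted p = 0.470), Prg2 (-1.04, adjusted p = 0.155), Prg3 (-0.85, adjusted p = 0.227) and Epx (-0.62, adjusted p = 0.449) were not called in MEP. Fcer1a, with 1 to 10 counts per library, was not tested. The summed level of the 10 genes was 55.3 to 80.5 TPM in WT and 40.9 to 57.3 TPM in KO MEP (exact permutation test, two-sided p = 0.2). Without Prg2, an alternative chosen after seeing the data, every KO sum lay below every WT sum (exact permutation test, two-sided p = 0.1, the smallest possible). The number of genes called lower was 1 without KO mouse 301, 2 without WT mouse 300, WT mouse 309 or KO mouse 304, and 2 with an offset for transcript length. Cpa3 was the member called in all 13 alternatives, whereas Prss34, Ms4a2 and Il1rl1 lost the call in 4, 4 and 5 of them.

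Whether the KO effect differed between MEP and GMP was tested directly on the 18 precursor libraries, where 23.5% of 18523 genes were called in either direction. One of the 10 genes was called. The difference (MEP effect less GMP effect) of Il1rl1 was 0.89 (SE 0.14, adjusted p = 2.21e-04 by edgeR), so the gene fell less in MEP than in GMP. With the mouse as a block, which the shared animals justify, 3 genes were called, namely Il1rl1 (0.89, adjusted p = 1.33e-04), Prss34 (2.15, adjusted p = 0.0447) and Fcer1a (2.20, adjusted p = 0.0676). The share of all genes called with this block was not counted, so that nothing is read from the number 3. Fcer1a passed the filter of this fit through GMP and CMP and had 1 to 10 counts per library in MEP, so that its value is printed without reading a difference from it. Without the block, the values for Prss34 and Fcer1a were 2.26 (SE 1.19, adjusted p = 0.223) and 2.18 (SE 0.89, adjusted p = 0.109). Leaving out KO mouse 308 of MEP turned the difference of Prss34 to -0.61 (adjusted p = 0.900) and that of Mcpt8 from 1.32 to -0.73. Fcer1a was also called without one of MEP WT mouse 300, GMP KO mouse 304, or the CMP libraries of KO mice 304 and 308, which made the number of genes 2, and so was Mcpt8 without MEP KO mouse 304 (1.84, adjusted p = 0.0990).

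In LT-HSC, none of the 10 genes was called lower or higher by edgeR at an FDR of 0.1, where 0.0528% of 22733 genes were called lower and 0.0264% higher. DESeq2 called 1 of them higher, where it called 87 of 38182 genes higher. At an unadjusted p under 0.05, edgeR gave 4 of the 10 (Cpa3, Prg2, Prg3 and Epx, all higher in KO). The share of all genes at that p was not counted, and nothing is read from the 4. Prg2 had 160 and 33.0 TPM in the WT libraries of mice S245 and S269 and 199 and 3004 TPM in the KO libraries of mice S244 and S270. Epx had 5.33 and 1.502 TPM in WT and 9.82 and 225 TPM in KO. Prg3 had 5.78 and 4.08 TPM in WT and 6.68 and 135 TPM in KO. By CPM every KO library lay above every WT library in 6 genes and below in 1, where 16.9% and 19.4% of all genes did. The high values of the eosinophil genes were those of KO mouse S270 alone, which reached 51.2% (Prg2), 45.8% (Prg3) and 33.7% (Epx) of the mean of WT GMP. In the same library, Prss34 reached 2.99%, Mcpt8 1.02%, Ms4a2 1.49%, Hdc 6.17%, Cpa3 6.37%, Fcer1a 16.9% and Il1rl1 62.9% of that mean. The further eosinophil genes that were listed, Ear1, Ear2 and Ear6 among them, summed to 553 TPM in this library against 35.8 to 162 TPM in the other 3. The 5 neutrophil primary granule markers summed to 1044 TPM in it and to 638 to 1405 TPM in the other 3. Late neutrophil markers set a WT library apart. They summed to 2528 TPM in WT mouse S269, against 368 TPM in WT mouse S245 and 382 and 401 TPM in KO mice S244 and S270. The part that other cells had in these values was not tested.

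The log2 fold change of Epx in LT-HSC was 5.59 (SE 1.179, adjusted p = 0.284), that of Prg2 4.44 (SE 1.05, adjusted p = 0.421) and that of Prg3 4.45 (SE 1.04, adjusted p = 0.380). Without the library of KO mouse S270 they became 1.95, 1.32 and 1.02, with adjusted p = 1 each. Cpa3 had 3.37 and 2.66 TPM in WT and 10.6 and 14.7 TPM in KO, with both KO libraries above both WT libraries (2.24, SE 0.62, adjusted p = 0.596), and 1.84 without KO mouse S270. For Hdc the values were 1.99 and 8.81 TPM in WT and 4.24 and 14.8 TPM in KO, and its log2 fold change of 0.92 turned to -0.46 without that library. Il1rl1 was lower in both KO libraries, with 8.57 and 11.0 TPM in WT and 5.81 and 5.81 TPM in KO (-0.63, SE 0.40, adjusted p = 0.876). Prss34, Mcpt8, Fcer1a and Ms4a2 stayed under 8 TPM in each of the 4 libraries. Over 10 alternatives, the log2 fold change of Epx ranged from 1.95 to 6.97, that of Prg2 from 1.32 to 5.74 and that of Prg3 from 1.02 to 5.42. Fits with 1 library left out assume that the lone library of an arm varies like the other arm. Counts of calls from them are not given.

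**Figure D3:**
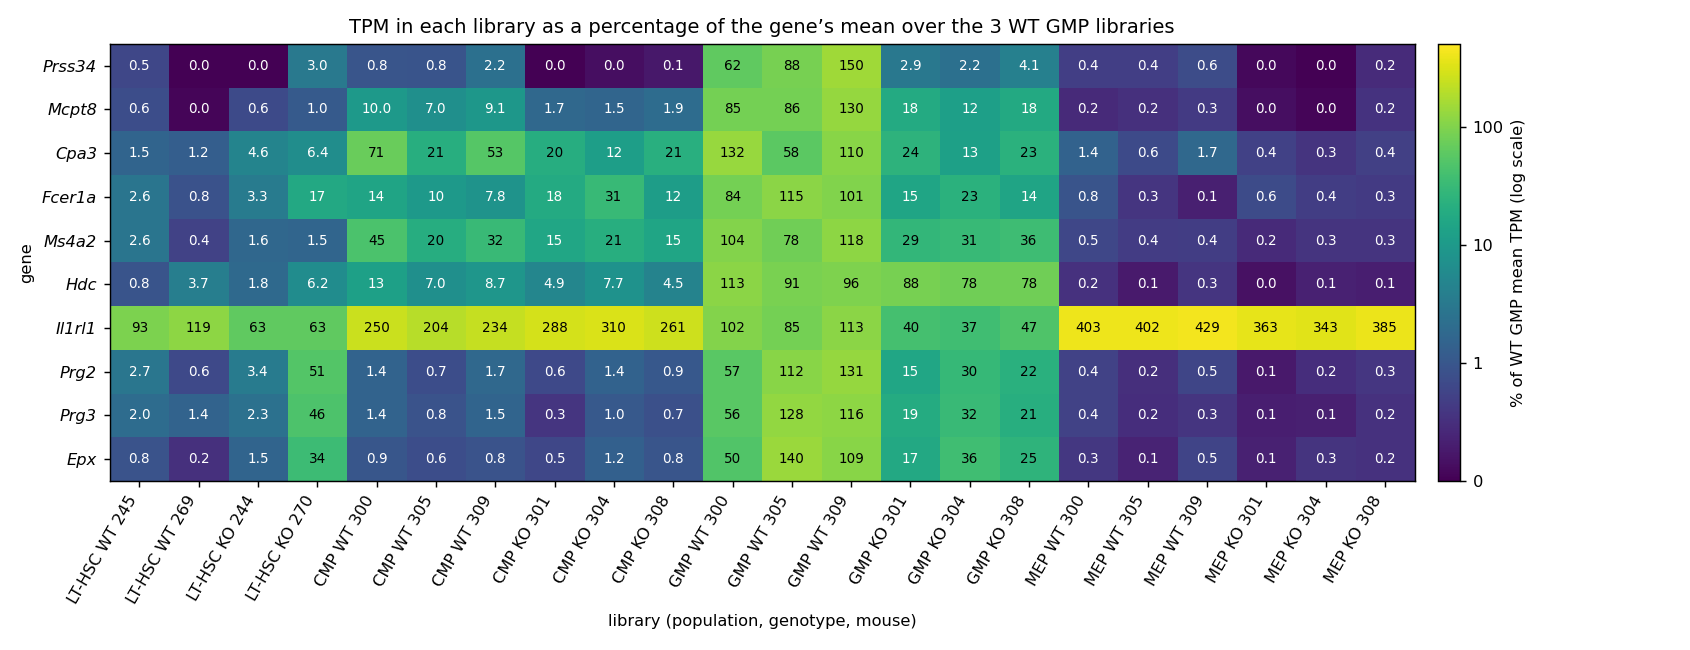
TPM of each gene (rows) in each of the 22 libraries (columns) as a percentage of that gene's mean over the 3 WT GMP libraries, on a log color scale with the values printed. KO GMP libraries stand between 2.2% (Prss34, mouse 304) and 88% (Hdc, mouse 301), and the LT-HSC library of KO mouse S270 is at 51% for Prg2 but 1.0% for Mcpt8.

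The genes around these pathways were counted from lists of IgE receptor signalling, mast cell granules, basophils, eosinophils, receptors and transcription factors, whose medians are given beside a median over all tested genes of -0.0056 in GMP and -0.0020 in MEP. Of all genes tested, 16.3% were called lower and 17.5% higher in GMP, and 15.4% and 14% in MEP. Counts near these shares are not read as results about a list. In GMP, the list of IgE receptor signalling moved upward more often than downward, with 7 of 12 genes higher and 3 lower (median 0.22). Fcer1g, the γ chain that the IgE receptor shares with other Fc receptors, rose from 131 ± 9.61 to 238 ± 6.86 TPM (log2 fold change 1.03, SE 0.07, adjusted p = 2.42e-05), opposite to the α and β chain genes. Fyn, a kinase downstream of the receptor, fell from 11.6 ± 0.750 to 2.21 ± 0.401 TPM (-2.39, SE 0.15, adjusted p = 1.06e-05), and the adaptor gene Lat fell by 1.34 on the log2 scale (SE 0.23, adjusted p = 0.00262). Of the IgE receptor list in MEP, 6 of 12 were lower and none was higher (median -0.53), among them Lat (-1.26, adjusted p = 0.00377), the kinase gene Syk (-0.89, adjusted p = 0.0132) and Plcg1, a phospholipase gene (-0.61, adjusted p = 0.0261).

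Of the 15 mast cell granule genes, 5 were tested in GMP, of which 3 were lower and 2 higher (median -0.57). The summed level of the whole list was nevertheless higher in KO GMP (2089 to 2762 TPM in WT and 3772 to 4243 TPM in KO). Slc18a2, the vesicular transporter that loads histamine and other amines, fell from 16.9 ± 1.181 to 4.69 ± 0.206 TPM (-1.69, SE 0.09, adjusted p = 5.63e-06), and Gzmb, a granzyme gene, from 9.04 ± 3.23 to 2.79 ± 0.333 TPM (-1.53, adjusted p = 0.00185). Serpinb1a, an inhibitor of neutrophil proteases that neutrophil precursors express as well, rose from 289 ± 45.9 to 543 ± 34.0 TPM (1.06, adjusted p = 1.93e-04). In MEP (median -0.13), 2 of 4 tested genes were lower, Slc18a2 (-1.09, adjusted p = 0.0203) and Srgn, the core protein of granule proteoglycans (-0.53, adjusted p = 0.00183), and Ndst2, a heparin-modifying enzyme gene, was higher (0.26, adjusted p = 0.0991, lost in 6 of 13 alternatives).

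Of 14 basophil surface, cytokine and eicosanoid genes tested in GMP, 4 were lower, 3 higher and 7 not called (median -0.65). The summed level of the whole list was again higher in KO GMP (359 to 447 TPM in WT and 515 to 568 TPM in KO). Il4, the cytokine gene of type 2 immunity, had 3.56 ± 0.769 TPM in WT and 0.980 ± 0.131 TPM in KO (-1.66, adjusted p = 0.00359). Cyp11a1, which starts steroid synthesis, fell from 8.34 ± 1.24 to 0.925 ± 0.460 TPM (-2.90, SE 0.31, adjusted p = 1.88e-04), and the cytokine gene Il6 from 1.99 ± 0.525 to 0.288 ± 0.0696 TPM (-2.71, SE 0.36, adjusted p = 6.00e-04). Ptgs1, the constitutive cyclooxygenase gene, rose from 33.9 ± 4.82 to 87.0 ± 19.3 TPM (1.48, adjusted p = 1.47e-04). In MEP the list gave 4 lower and 1 higher of 11 tested, although its median was 0.08, with Alox5 (-0.91, adjusted p = 0.0395) and Csrp3 (-0.79, adjusted p = 0.0308) lower and Ptgs1 (1.33, adjusted p = 0.0684) higher, calls that were each lost in 3 or 4 of 13 alternatives.

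Eosinophil genes fell in GMP in 5 of 9 tested, with 1 higher (median -1.10), and none of 7 tested was called in MEP by edgeR (median -0.57), with 1 at an unadjusted p under 0.05 and 1 called by DESeq2. The summed level of the whole list was lower in KO GMP (697 to 1784 TPM in WT and 365 to 606 TPM in KO). Il5ra, the receptor chain for interleukin 5, fell in GMP from 5.89 ± 1.04 to 1.10 ± 0.343 TPM (-2.15, SE 0.26, adjusted p = 3.42e-04). The eosinophil ribonuclease genes Ear2 and Ear6 fell by 2.33 (SE 0.41, adjusted p = 0.00263) and 2.31 (SE 0.53, adjusted p = 0.0115) on the log2 scale, though reads of this family of near-identical genes can be shared among its members and their counts are uncertain. The gene that rose was Cebpe, a factor of late granulocytes that neutrophils also use (0.56, adjusted p = 0.00152).

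Of 10 receptor genes tested in GMP, 3 were lower (Il5ra, Il3ra and Crlf2) and 3 higher (Csf2rb, Csf2rb2 and Csf2ra, median 0.20). Csf2rb, the signalling chain shared by the receptors for interleukin 3, interleukin 5 and GM-CSF, rose from 48.3 ± 2.09 to 80.8 ± 4.33 TPM (0.90, SE 0.07, adjusted p = 3.91e-05), and Csf2rb2, its interleukin 3-specific paralog, by a log2 fold change of 1.26 (adjusted p = 2.11e-05), with reads that the 2 paralogs may share. Kit, the stem cell factor receptor on which the sort relied, was called neither in GMP (-0.02, adjusted p = 0.867) nor in MEP (-0.09, adjusted p = 0.730), and its sign turned in each when 1 of the libraries was left out. In MEP, where 2 receptor genes were lower and 2 higher of 10 (median -0.08), Itgb7, an integrin chain of mast cell and T cell precursors, rose from 7.84 ± 0.417 to 26.4 ± 3.87 TPM (1.70, SE 0.13, adjusted p = 9.80e-05), and Il3ra and Csf2ra fell by 1.16 (adjusted p = 0.00347) and 0.62 (adjusted p = 0.0297) on the log2 scale.

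The transcription factor list had 8 of 16 genes lower and 5 higher in GMP (median -0.26). Gata2 fell from 83.1 ± 8.28 to 25.0 ± 2.47 TPM (-1.70, SE 0.11, adjusted p = 1.11e-05), and in MEP, where 3 of 14 were lower and 1 higher (median -0.16), from 63.9 ± 9.003 to 18.1 ± 3.07 TPM (-1.84, SE 0.11, adjusted p = 2.94e-05). In CMP its values were 256 ± 27.0 and 175 ± 3.76 TPM (-0.69, SE 0.07), and in LT-HSC its log2 fold change was -0.14 (adjusted p = 0.933). Gata1, the erythroid, eosinophil and mast cell GATA factor, fell from 14.05 ± 0.270 to 6.68 ± 1.22 TPM in GMP (-0.90, SE 0.12, adjusted p = 5.46e-04), was not called in MEP (-0.02, adjusted p = 0.748), and had 0.35 (SE 0.12) in CMP. Cebpa fell from 166 ± 6.93 to 112 ± 3.93 TPM in GMP (-0.40, SE 0.06, adjusted p = 0.00107, lost in 1 of 13 alternatives) and had -0.88 (SE 0.11) in CMP and -0.79 (adjusted p = 0.187) in MEP. Id1 and Id2, inhibitors of helix-loop-helix factors, rose in GMP by 2.60 (SE 0.10, adjusted p = 2.65e-06) and 2.10 (SE 0.22, adjusted p = 1.52e-04) on the log2 scale. In MEP, Lmo2, a partner of GATA factors, was higher (0.45, adjusted p = 5.29e-04) and Stat5a lower (-0.35, adjusted p = 0.0147). In LT-HSC no gene of these 6 lists was called by edgeR, which gave 0 to 2 genes per list at an unadjusted p under 0.05. DESeq2 called 1 there, in the mast cell granule list, where it called 161 of 38182 genes lower and 87 higher. In CMP, given as a description, the median log2 fold change was -0.18 for the IgE receptor, 0.14 for the mast cell granule, -0.19 for the basophil, -0.62 for the eosinophil, -0.09 for the receptor and -0.19 for the transcription factor list, and -0.0027 over all tested genes.

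**Figure D4:**
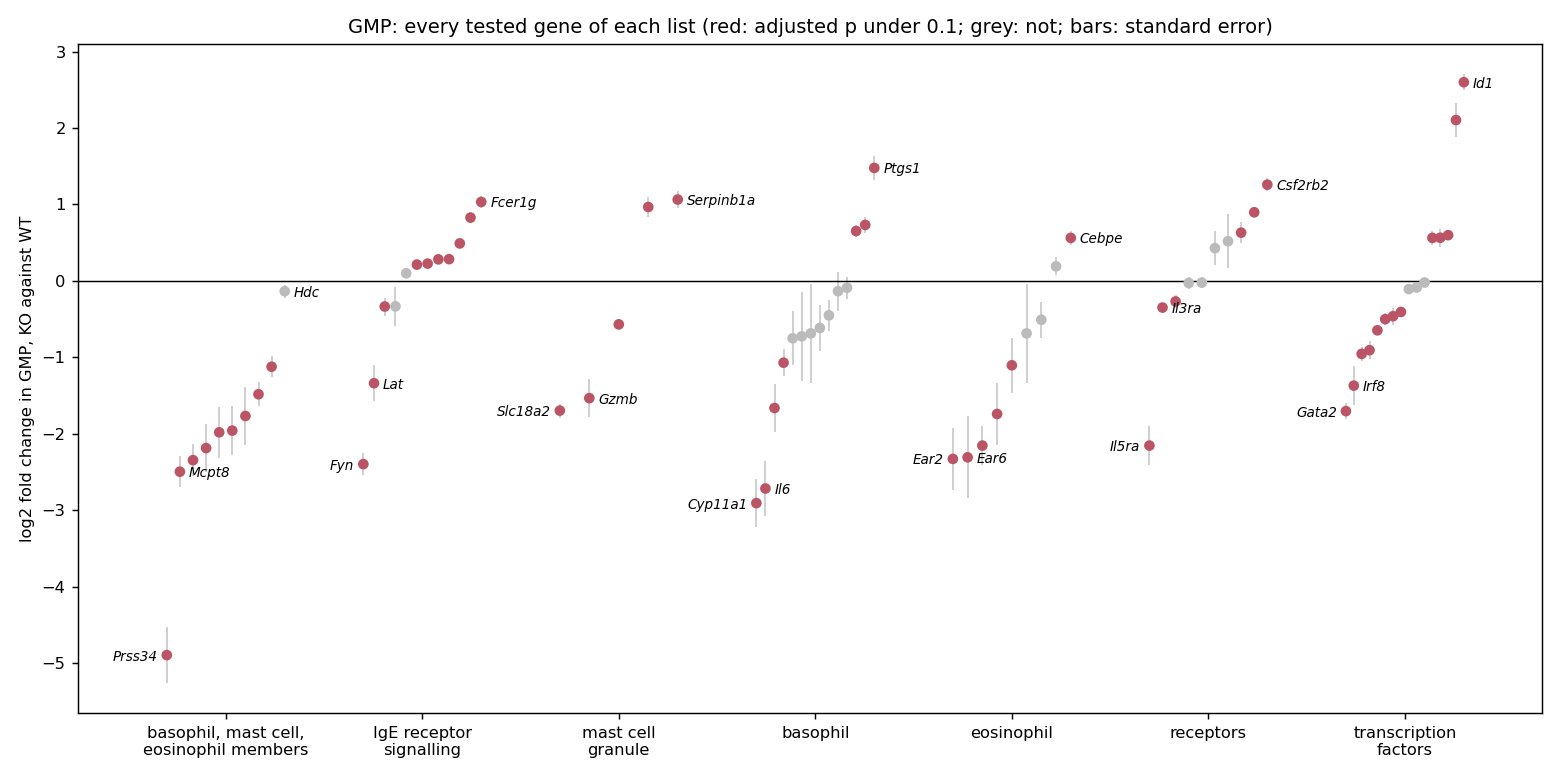
Log2 fold change of KO against WT in GMP for each tested gene of the 10-gene list and of 6 lists of related genes, ordered within a list, with bars of 1 standard error and red points for an adjusted p under 0.1. The 10 genes run from -4.89 (Prss34) to -0.13 (Hdc), whereas the signalling, receptor and transcription factor lists have red points on both sides of 0.

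Markers of other cell types also moved in GMP. The counts below stand beside 16.3% of all tested genes called lower and 17.5% higher in GMP, and 15.4% and 14% in MEP. All 5 neutrophil primary granule markers were higher in KO GMP, with a summed level of 30992 to 36507 TPM in WT and 41386 to 46611 TPM in KO libraries. Late neutrophil markers were higher in 3 and lower in 1 of 6 (summed level 160 to 370 TPM in WT and 410 to 1342 TPM in KO), and monocyte and macrophage markers lower in 4 and higher in 1 of 6 (225 to 410 and 127 to 166 TPM). Of erythroid markers 2 of 7 were lower and 1 higher (45.4 to 61.5 and 39.9 to 41.15 TPM). Of megakaryocyte markers 2 of 5 were lower and 1 higher (105 to 221 and 70.5 to 90.1 TPM). Of T and NK cell markers 1 of 3 tested was lower and 1 higher, though the summed level of the whole list was higher in KO (645 to 860 and 945 to 1107 TPM). Of B cell markers none of 4 was called or had an unadjusted p under 0.05 (32.4 to 33.0 and 23.4 to 32.3 TPM). Of the gate and identity genes 3 of 9 were lower and 2 higher (781 to 841 and 674 to 739 TPM). In MEP, erythroid markers were higher in 4 and lower in 1 of 7. Their summed level was lower in KO (7049 to 8127 TPM in WT, 5531 to 6108 TPM in KO). The lower gene was Car1, a carbonic anhydrase gene, which fell from 4499 ± 847 to 2172 ± 439 TPM (-1.09, adjusted p = 0.00477). Megakaryocyte markers were higher in 3 of 5 (24.5 to 45.0 and 68.7 to 93.0 TPM). The part of these shifts in the fall of the 10 genes was not tested.

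Genes whose levels followed the members most closely over the 18 precursor libraries are given as a description, since the libraries share mice and the CMP contrast. The profile of Prss34 and Mcpt8 was matched best by Cdh1, the gene of E-cadherin (Pearson r = 0.98 of log2 CPM, n = 18), which had 8.93 ± 2.10 TPM in WT and 1.72 ± 0.189 TPM in KO GMP, followed by Otogl, Cntnap1, Rnase12 and Il5ra. That of Prg2, Prg3 and Epx was matched by Ear1 (r = 0.99), Ear2, Ear6, Flt1 and Cracr2b. The mean profile of Cpa3, Ms4a2, Fcer1a, Hdc and Il1rl1 was matched by Gzmb (r = 0.98), Rtn4r, Fam129a, Camk2b and Klhl3. Among the members, Prg2 and Epx had r = 0.99, Prss34 and Mcpt8 r = 0.91 and Cpa3 and Ms4a2 r = 0.97, whereas Il1rl1 was negatively related to each of the others (r = -0.93 with Hdc).

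Neighboring genes within 100 kb did not share one direction with the members in GMP. Beside Prss34, the tryptase gene Prss28 was lower at a level under 1 TPM (0.506 TPM in WT and 0.0400 TPM in KO, log2 fold change -3.41, adjusted p = 0.00162), while Tsr3 (-0.02, adjusted p = 0.914) was not called. Ctsg, the neutrophil cathepsin G gene that lies 17301 bp from Mcpt8, was higher (0.54, SE 0.09, adjusted p = 0.00267). Beside Ms4a2, the oocyte-secreted protein genes Oosp1 (3.49 TPM in WT, 41.3 TPM in KO, log2 fold change 3.67, adjusted p = 8.78e-06) and Oosp2 (0.492 and 4.60 TPM, 3.49, adjusted p = 8.67e-05) and the granulocyte gene Ms4a3 (1.09, adjusted p = 6.00e-05) were higher. Il18rap beside Il1rl1 was also higher (8.71 TPM in WT and 20.8 TPM in KO, 1.44, adjusted p = 6.12e-06).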

How the data were processed

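Paired-end reads of 100 bp were assigned by the authors to mouse transcripts of Ensembl 84 (mm10) with kallisto 0.43.1. The authors deposited, for each transcript and library, an estimated count (fragments shared by transcripts are split among them), a TPM value and an effective length. The study used DESeq2 1.18.1. Of 115088 transcripts, 114200 were paired with genes of GENCODE vM21 (GRCm38), and the other transcripts held 0.233% to 0.363% of the counts. Estimated counts and TPM of a gene's transcripts were added up, and the counts rounded. Each population was fitted with edgeR 4.0.16 (TMM, filterByExpr, quasi-likelihood F-test, genotype as the only term, Benjamini-Hochberg adjustment over all genes, FDR 0.1) in R 4.3.3. SE was taken as |log2 fold change| over the root of F. Permutation tests used scipy 1.17.1.

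Samples were grouped by the genotype and population in their labels, and replicates are separate mice. In WT, deviations of the same mouse in different populations correlated with r = 0.15 to 0.61, and the animals are shared, so the mouse served as a block in an alternative. The members, lists and rules were chosen with earlier results of these data known. Named genes were the members, up to 3 genes per list with the largest called change and at least 1 CPM in GMP and in MEP, Gata2, Cebpa, Gata1, Kit and Fcer1g, the 5 genes most alike each of 3 profiles, and neighbors within 100 kb. Il4, Crlf2, Cebpe, Cma1 and Csf2ra in GMP were named after their values were seen.

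The alternatives tried included size factors by median of ratios, no filter, a length offset, DESeq2 1.42.0 without and with that offset, a block of column pairs, 1 fit of 18 libraries, and each library left out. The fits were tested on simulated data with known changes, which were placed only in genes with a mean above 1 CPM. The share of 2-fold changes recovered was 83% in CMP, 87% in GMP, 86% in MEP and 3% in LT-HSC. For 4-fold changes it was 99%, 100%, 100% and 52%. Of the calls, 12.5%, 10.5%, 12.7% and 9.84% were false. A gene that was not called in LT-HSC may therefore still differ. The shares do not cover members under 1 CPM, such as Mcpt8, Hdc and Prg3 in MEP, which may also differ without a call. The median SE over tested genes was 0.118 in GMP, 0.12 in MEP and 0.765 in LT-HSC.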

Additional observations from a re-analysis of the deposited data

Results flagged for a closer look

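The KO effect differed between MEP and GMP (interaction, edgeR's quasi-likelihood test, FDR 0.1) for Il1rl1 among the 10 genes, with a log2 difference of MEP less GMP of 0.89. Among the other genes named in the text, it was less downward or more upward in MEP for Il6 (4.19), Il5ra (2.63), Gzmb (2.12), Fyn (1.86), Itgb7 (1.26), Gata1 (0.87), Ndst2 (0.82) and Lmo2 (0.46), and for Klhl3 (2.45), Cntnap1 (2.04), Fam129a (1.60) and Il4 (1.31). It was less upward or more downward in MEP for Id2 (-2.73), Id1 (-2.39), Fcer1g (-1.57), Srgn (-1.51), Csf2ra (-1.26), Syk (-1.13), Il3ra (-0.83) and Stat5a (-0.26), and for Oosp1 (-3.84), Il18rap (-1.25), Ctsg (-1.10) and Ms4a3 (-0.92). Il6, Gzmb, Id1, Cntnap1 and Oosp1 did not pass the filter in MEP alone. Il5ra averaged under 0.15 TPM in MEP, and Klhl3 averaged 0.119 TPM in WT MEP. The values of all these genes have next to no MEP level behind them, and no difference is read from them.

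For some members, every KO library lay above every WT library by TPM in one population and below in another, a difference that was not tested. Il1rl1 was above in CMP (log2 fold change 0.20) and below in GMP, MEP and LT-HSC. In LT-HSC, KO libraries were above WT for Cpa3 (2.24), Fcer1a (2.92), Prg2 (4.44), Prg3 (4.45) and Epx (5.59), and in GMP below for each of these, and in MEP also below for Cpa3. By CPM, though not by TPM, Mcpt8 was likewise above in LT-HSC (1.67) and below in CMP and GMP. Libraries of LT-HSC were made with another kit than those of precursors. For Prg2, Prg3 and Epx, KO mouse S244 exceeded WT mouse S245 by far less than KO mouse S270 did.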

How the results depend on the processing

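In GMP, 129 of 130 values of the 10 genes under 13 alternatives kept their direction and their side of the threshold, and the count called lower was 9 to 10 with libraries left out and 9 with a replicate block of WT and KO mice paired by the order of columns in a supplementary table. That order is not stated as a pairing, although in GMP and CMP the deviations of such pairs correlated with r of 0.36 to 0.58 in each pair. In MEP they correlated with 0.03 to 0.52. The block changed no call of a member in GMP, gave 5 lower in MEP and 2 higher in CMP. The CMP count higher was also 2 with DESeq2 and 0 with the length offset, with DESeq2 and that offset, and in 1 fit of 18 libraries. With libraries left out, the CMP counts were 3 to 6 lower and 0 to 1 higher, the MEP count 1 to 6 lower and the count for MEP against GMP 1 to 2. The length offset gave 2 lower in MEP. In LT-HSC, 4 genes were higher without the filter, where 109 of 38182 genes were. DESeq2 gave 1 without and with the offset, where 87 and 77 of 38182 genes were higher. The mouse block gave 3 genes for MEP against GMP, where the share of all genes was not counted, and changed no call between WT populations. The cause of these moves was not tested. The summed level in KO as a share of WT was 71.5% in MEP without Cpa3, and without Prg2, added after seeing the data, it was 27.4% in GMP and 79.9% in MEP.

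Some values turned sign when libraries were left out, and their ranges over those fits follow. Epx in CMP ranged from -0.33 to 0.29 (and was -0.073 with the column block), turning without KO mice 304 or 308 or WT mouse 305. Kit ranged from -0.078 to 0.020 in GMP (turning without WT mouse 300 or KO mouse 308), from -0.26 to 0.024 in MEP (without WT mouse 309) and from -0.20 to 0.14 in LT-HSC (without KO mouse S244 or WT mouse S245). In LT-HSC, Prss34 ranged from -7.55 (without KO mouse S270, against a library at 0) to 10.57, Hdc from -0.46 (without S270) to 2.31, Fcer1g from -0.13 to 0.39 (turning without WT mouse S245 or KO mouse S270), Gata1 from -0.96 to 0.45 (without WT mouse S269) and Gata2 from -0.27 to 0.022 (without KO mouse S244). For MEP against GMP, Prss34 ranged from -0.61 to 2.83 and Mcpt8 from -0.73 to 1.84, both turning without MEP KO mouse 308.

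Levels under 1 TPM in MEP and 2 libraries per LT-HSC group are the limits of these data.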
